A study of Mus musculus with 6 samples.

Results

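Suprabasal secreted and stratification proteins are a named group of proteins made by keratinocytes above the basal layer of the epidermis. Whether each is limited to those layers cannot be read from these data. They were described here in the skin of mouse embryos at embryonic day 16.5, in Tcfap2c mutants and in controls. The group was set by name as 9 genes, Krtdap, Dmkn, Sbsn, Crct1, Kprp, Calml3, Lgals7, Sfn and Perp, and its members were all probe sets that the platform annotation pairs with exactly 1 of these symbols. All 9 genes were found, by 11 probe sets of 45101 on the array (9 genes of 18193), and all 11 passed the filter on dim probe sets. Sbsn had 3 probe sets and each other gene had 1.

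The mutant group held 3 skin samples labelled as Tcfap2c mutant and the control group 3 samples labelled as control, with 1 one-colour Affymetrix array for each. Tcfap2c, now Tfap2c, encodes the transcription factor AP-2 gamma. The allele, the strain, the tissue in which the gene is mutated and the genotype of the controls are not stated in the labels, and the description of the control samples also mentions the mutation. Nothing in the labels says whether samples came from separate litters, so the tests measure the spread between these 6 samples, and precision is limited by the number of arrays.

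In stratified epithelium, basal keratinocytes divide, move up and differentiate through the spinous and granular layers before they form the cornified layer. Krtdap, Dmkn and Sbsn encode secreted proteins of the suprabasal layers, and their genes lie side by side. Crct1 and Kprp are genes of the epidermal differentiation complex, which also holds the late cornified envelope (Lce) genes. Calml3 encodes a calmodulin-like calcium-binding protein of epithelia, and Lgals7 encodes galectin-7, a sugar-binding protein of stratified epithelia. Sfn encodes 14-3-3 sigma, an adaptor protein needed in mice for keratinocytes to stop dividing and differentiate. Perp encodes a membrane protein of desmosomes, the junctions that hold keratinocytes together, and its loss in mice causes blistering. Sfn and Perp are both known p53 targets, and Perp is also a target of p63, the master factor of stratified epithelia.

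The upstream sequences of Krtdap, Dmkn and Sbsn are shown because these neighbours shared short matches and had similar readings across the arrays. They are the 250 bases before an annotated transcription start in RefSeq (GRCm38.p6), all on the plus strand and written 5′ to 3′. Capitals mark matches to the AP-1 motif TGANTCA and the TATA motif TATAAA. The positions are chr7:30787655-30787904 for Krtdap, chr7:30763506-30763755 and chr7:30776155-30776404 for the upstream and downstream starts of Dmkn, and chr7:30751221-30751470 for Sbsn.
Krtdap: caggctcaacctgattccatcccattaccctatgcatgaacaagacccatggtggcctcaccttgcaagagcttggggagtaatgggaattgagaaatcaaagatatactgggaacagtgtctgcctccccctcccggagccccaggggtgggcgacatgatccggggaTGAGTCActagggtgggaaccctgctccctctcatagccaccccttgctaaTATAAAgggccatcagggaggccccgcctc
Dmkn, upstream start: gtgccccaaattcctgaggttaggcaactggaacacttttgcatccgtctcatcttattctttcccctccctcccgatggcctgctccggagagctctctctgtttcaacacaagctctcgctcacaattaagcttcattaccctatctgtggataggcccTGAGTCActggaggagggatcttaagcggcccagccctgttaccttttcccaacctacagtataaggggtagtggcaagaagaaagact
Dmkn, downstream start: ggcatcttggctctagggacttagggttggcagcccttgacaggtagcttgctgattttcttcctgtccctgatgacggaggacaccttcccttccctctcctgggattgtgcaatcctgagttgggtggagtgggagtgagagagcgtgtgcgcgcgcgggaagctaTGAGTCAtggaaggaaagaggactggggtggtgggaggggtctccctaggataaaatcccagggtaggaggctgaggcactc
Sbsn: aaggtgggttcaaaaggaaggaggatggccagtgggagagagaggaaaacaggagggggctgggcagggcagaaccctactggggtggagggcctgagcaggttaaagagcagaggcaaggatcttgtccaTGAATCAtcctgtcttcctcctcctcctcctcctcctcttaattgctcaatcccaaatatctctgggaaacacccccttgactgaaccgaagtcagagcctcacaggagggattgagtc

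The promoter table held 7 entries for 5 of the 9 genes, Krtdap, Dmkn, Sbsn, Lgals7 and Sfn. Each window of the 3 neighbouring genes had 1 AP-1 match, whose first base lay 81 bases before the start of Krtdap, 89 and 82 bases before the upstream and downstream starts of Dmkn, and 119 bases before that of Sbsn. Another entry of Dmkn begins 2 bases from the upstream one and holds the same match. The windows of Lgals7 and Sfn held no AP-1 match, so 5 of the 7 windows and 3 of the 5 genes had one. Among all 32851 windows of 250 bases in the table, 6.75% held TGANTCA. Krtdap alone had the TATA motif, 30 bases before its start, where 12.4% of all windows held TATAAA. None of the 7 windows held the AP-2 motif GCCNNNGGC, present in 13.7% of all windows, or the grainyhead motif AACCGGTT, present in 0.116%. Both strands were searched, the AP-1, AP-2 and grainyhead motifs read the same on either strand, and no matches overlapped in these windows. The motifs were chosen with the results known, and a match or its lack says nothing about which factor binds there.

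The 6 arrays had median signals of 110.4 to 131.5 and an equal trimmed mean of 500, set by the authors' scaling. Tfap2c itself, at the brightest of its 3 probe sets, had signals of 1596, 1392 and 1247 in mutant samples, against 1330, 1347 and 1193 in control samples, which does not check the labels, since the altered part of the gene is not stated. Mutant sample 1 stood apart, with a first principal component score of -65.1 against 0.352 to 28.3 in the other 5. Its summed signal of 10 decidual and uterine markers was 74010, where mutant samples 2 and 3 had 4190 and 4570 and the control samples 4163 to 4319. Its summed signal of 6 smooth muscle markers was 48280, against 7729 to 10060 in the other samples. Actg2, at 13440 in mutant sample 1, is in both lists, so these sums are not separate signs. Of the decidual and uterine markers, only Prl3c1 was not highest in mutant sample 1, where it was at 2.18. Keratinocyte markers were at high signal in every sample, as the skin label implies: the 7 suprabasal markers summed to 132700 to 163100 in mutant and 139600 to 171700 in control samples. The 8 basal markers summed to 37300, 68520 and 56140 in mutant samples 1, 2 and 3, against 55850 to 60850 in control samples. Dermal markers were at high signal too, with 8 fibroblast markers summing to 151500 to 155500 in mutant and 142900 to 162800 in control samples, although the series title speaks of epidermis. The 6 markers of simple epithelium summed to 11420 to 12820 in mutant samples, against 6552 to 8684 in control samples, and their part in the results below was not tested. Sums of 8 skeletal muscle markers (67620 to 70660 in mutant, 69910 to 84450 in control samples) and of 6 endothelial markers (3136 to 4000 in mutant, 3565 to 4016 in control samples) overlapped between groups. No marker of these lists was at 0 in all arrays. In whole skin, fewer cells of a type and less RNA per cell cannot be told apart.

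Signals of the 9 genes overlapped between mutant and control samples for all but 1 gene, Calml3, and no member passed the test. Differences are given as mutant minus control on the log2(signal + 24.48) scale, and were tested with limma over all 22518 probe sets that passed the filter, with Benjamini-Hochberg adjustment and a threshold of 0.05. At that threshold 0 of 9 members were called, where the share over all probe sets was 0.00444% (1 of 22518), and every member had a limma adjusted p of 1. At an unadjusted p under 0.05 limma called 1 member lower (11.1%), against 1.97% of all probe sets called lower, and it called none higher, against 1.45% (3.42% of all probe sets in either direction). With 9 members, 1 call cannot set the group apart from that background. Of the members, 7 had a negative difference (77.8%), against 55.6% of all probe sets, and the median difference was -0.24, against -0.025 over all probe sets tested. Over all genes tested, with 1 probe set each as for the members, 53.5% were negative and the median was -0.014. The median of the members rested on single arrays, since it was 0.074 without mutant sample 1 and -0.54 without mutant sample 2.

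**Figure D1:**
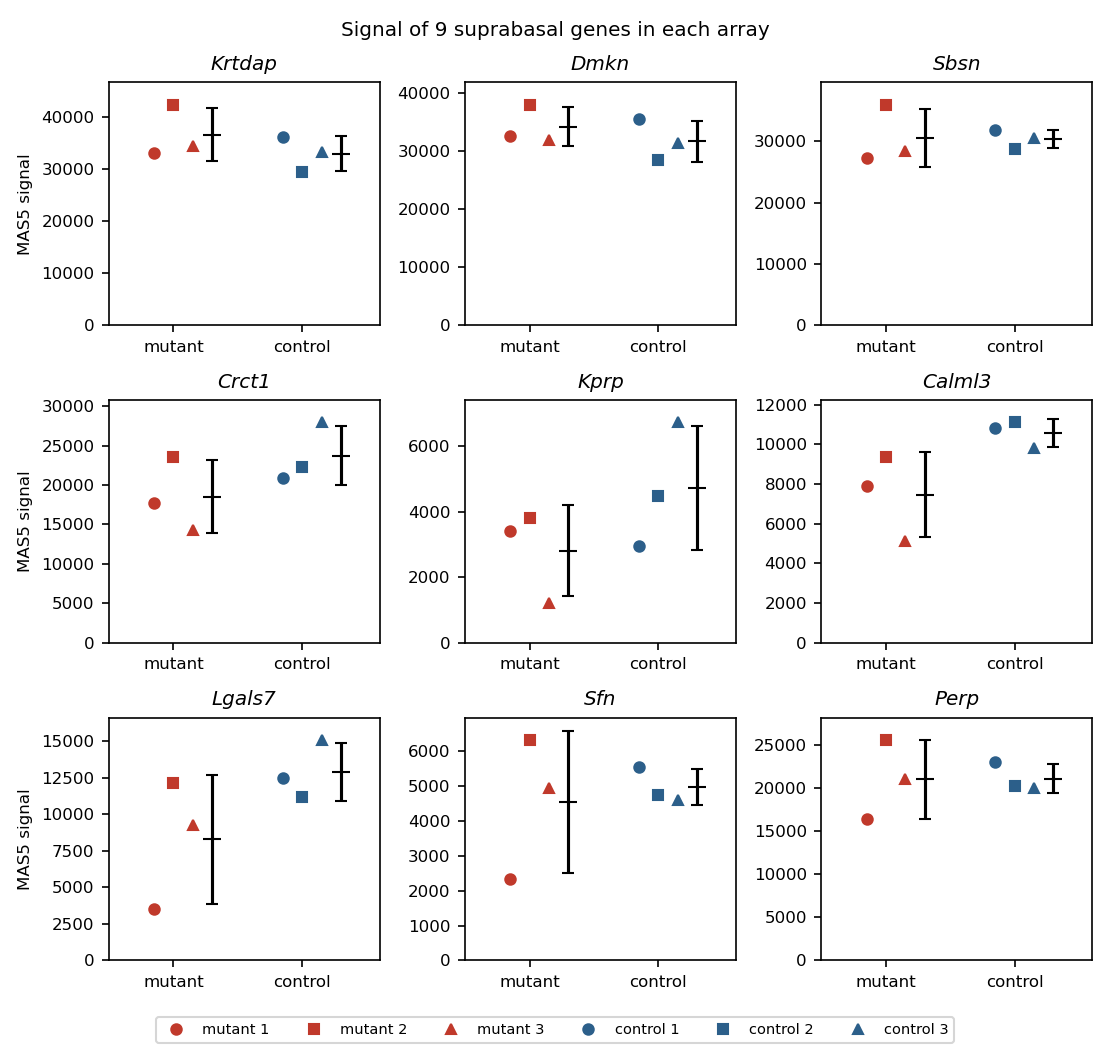
MAS5 signal (vertical axes, linear, from 0) of the 9 genes in 3 mutant and 3 control arrays, with the brightest probe set shown for Sbsn; black bars are the mean ± SD of 3 arrays. Calml3 is the 1 gene in which all mutant arrays (5124 to 9342) lie below all control arrays (9804 to 11120), and mutant sample 1 is far below the others for Lgals7 and Sfn.

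At the brightest probe set of each gene, the secreted proteins of the chromosome 7 neighbours had the smallest spread among mutant samples. The dimmest probe set of Sbsn had a wider spread there. Its SD of log2 signal in mutant samples was 0.486, against 0.322 for Perp. Krtdap, the keratinocyte differentiation-associated protein, had signals of 33090, 42400 and 34420 in mutant samples 1, 2 and 3, against 36200, 29490 and 33250 in control samples 1, 2 and 3. Mutant sample 2 was the highest and control sample 2 the lowest, and the groups overlapped. The difference was 0.15 (SE 0.13, 95% interval -0.14 to 0.44, limma adjusted p = 1). Its mean was 36640 ± 5030 in the mutant group, against 32980 ± 3360 in the control group (SD, n = 3 each).

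Dmkn, which encodes the secreted glycoprotein dermokine, had signals of 32520, 37940 and 31840 in mutant samples, against 35380, 28320 and 31240 in control samples. It had the same highest and lowest arrays as Krtdap, and its groups overlapped. The difference was 0.11 (SE 0.12, 95% interval -0.16 to 0.38).

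Sbsn, which encodes suprabasin, a secreted protein of differentiating keratinocytes, had signals at its brightest probe set of 27240, 35990 and 28330 in mutant samples, against 31810, 28810 and 30480 in control samples. Mutant sample 2 was again the highest, while mutant samples 1 and 3 lay below all control samples. The difference was -0.0027 (SE 0.12, 95% interval -0.28 to 0.28), and it changed sign in 4 of 17 other settings without a call in any. Its second probe set gave 0.04 (SE 0.12), and there control sample 2 was the lowest array (25860), just below mutant sample 3 (25920). The dimmest gave -0.20 (SE 0.21), with 8856, 16700 and 9946 in mutant and 13040, 13430 and 12820 in control samples. At that probe set the control samples lay within a narrow band, and 2 mutant samples lay below it and 1 above it. Mutant sample 2 was the highest array at all 3 probe sets.

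The brightest end of each array, which these genes lie near or within and so help to set, moved with these signals. The 99.9th percentile of signal was 33600, 37950 and 33800 in the mutant arrays, against 36610, 31330 and 33210 in the control arrays, each in replicate order, so mutant sample 2 was the highest and control sample 2 the lowest, as for Krtdap and Dmkn. After quantile normalization, which sets these percentiles equal, Krtdap in mutant sample 2 lay 0.18 above the control mean on the log2 scale, against 0.37 without it, and Dmkn 0.087, against 0.27. The group differences were then 0.093 for Krtdap (SE 0.075), 0.049 for Dmkn (SE 0.071) and -0.047 for Sbsn (SE 0.083), all with a limma adjusted p of 1. Quantile normalization makes the top of every array alike, so some shrinkage of genes there is built in, and its source was not tested. The genes next to this group on the chromosome that had a probe set, Gapdhs beside Sbsn and Ffar2 beside Krtdap, were too dim for the filter. Gapdhs averaged 156 ± 92 in the mutant group, against 66.3 ± 41.3 in the control group, and Ffar2 101.9 ± 43.1, against 73.2 ± 28.4 (SD, n = 3 each).

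**Figure D2:**
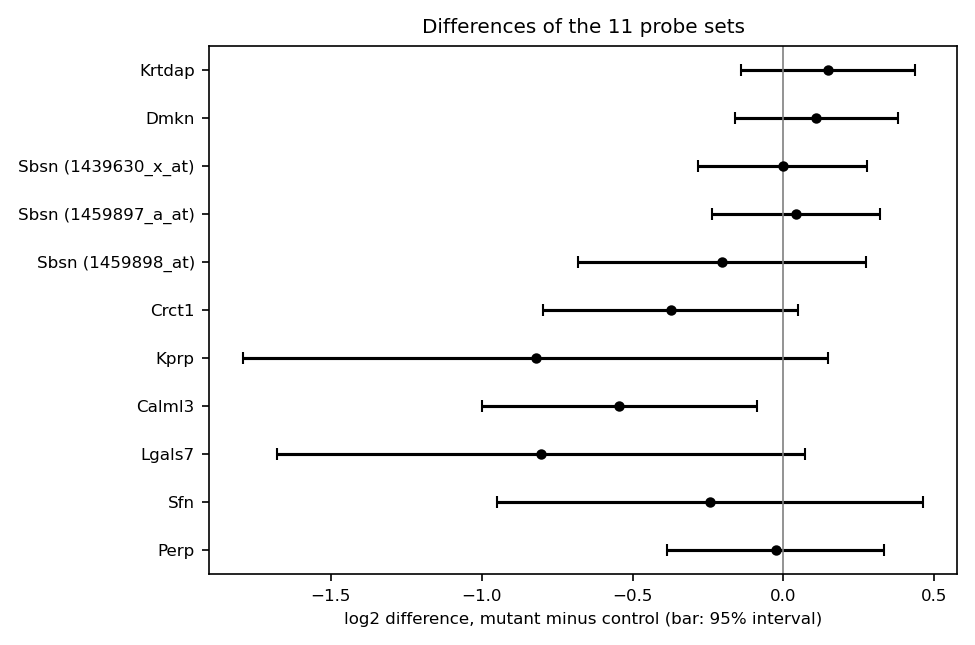
Log2 difference, mutant minus control (horizontal axis), of the 11 probe sets of the 9 genes, with the 95% interval from limma as bars. The interval of Calml3 ends below 0, at -0.087, and the intervals of the other 10 probe sets include 0.

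Calml3 had the smallest p of the 9 genes. The signals of this calmodulin-like protein were 7929, 9342 and 5124 in mutant samples 1, 2 and 3, against 10840, 11120 and 9804 in control samples. Every mutant sample lay below every control sample, and mutant sample 3 was the lowest. Such a gap in the lower direction was found for 1 of 9 members and for 5.03% of all probe sets. Its mean was 7465 ± 2150 in the mutant group, against 10590 ± 695 in the control group (SD, n = 3 each), or 0.686-fold as computed from the log2 difference. The log2 difference was -0.55 (SE 0.20, 95% interval -1.0 to -0.087) with an unadjusted p of 0.0247 and a limma adjusted p of 1. The exact two-sided permutation p was 0.1, the smallest that 3 against 3 samples allow. Without mutant sample 3 the difference was -0.30 (limma unadjusted p = 0.0649). With array weights it was -0.88 (limma adjusted p = 0.0579), where mutant sample 3 had a weight of 3.13, against 0.257 and 0.56 for mutant samples 1 and 2. Calm4, the neighbouring gene and a calmodulin-like protein of mouse epidermis, did not share the gap: its signals were 32080, 38400 and 26930 in mutant samples, against 35550, 29090 and 32680 in control samples. Its difference was -0.0091 (SE 0.14). Calm4 and Calml4 were the only 2 of 6 listed calmodulin relatives on the array with a single symbol, and Calml4 differed by 0.08.

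Crct1 and Kprp, the members from the epidermal differentiation complex, had lower means in mutant samples without passing the test. Crct1, a small cysteine-rich protein, had signals of 17750, 23570 and 14300 in mutant samples, against 20940, 22250 and 27960 in control samples. Mutant sample 3 was the lowest, mutant sample 2 lay inside the control range, and the groups overlapped. The difference was -0.37 (SE 0.19, 95% interval -0.80 to 0.049), which moved to -0.20 when mutant sample 3 was left out and to -0.25 when control sample 3 was. Leaving out mutant sample 2 gave -0.56 (unadjusted p = 0.00729, limma adjusted p = 0.74), and array weights gave -0.59 (unadjusted p = 0.00325, limma adjusted p = 0.182). With quantile normalization it was -0.43, with an unadjusted p of 0.0346 and a limma adjusted p of 1.

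Kprp, a proline-rich protein of the cornified envelope and upper layers, had signals of 3399, 3816 and 1223 in mutant samples, against 2957, 4469 and 6724 in control samples. Its control samples differed widely among themselves, and mutant samples 1 and 2 lay within their span. The difference was -0.82 (SE 0.43, 95% interval -1.79 to 0.15). Leaving out mutant sample 3 gave -0.31, leaving out control sample 3 gave -0.53, and array weights gave -1.50 (limma adjusted p = 0.131).

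The genes beside Crct1 and Kprp had differences of larger size than the members themselves, a contrast that was not tested. Kprp lies among Lce1 genes, and the nearest with a probe set were Lce1i and Lce1l. Lce1i had 12400, 8590 and 2295 in mutant samples, against 15170, 16070 and 20250 in control samples, a difference of -1.44. Lce1l had 1052, 569 and 109.4 in mutant samples, against 725.2, 1102 and 715.4 in control samples, a difference of -0.96. The groups overlapped for Lce1l, and neither gene passed the test. Mutant sample 3 was the lowest array for both, as for Kprp.

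Crct1 lies between Lce3f and Lce1m. Lce3f had 8601, 12660 and 12320 in mutant samples, against 622.6, 4701 and 1938 in control samples, a difference of 2.60 (limma adjusted p = 0.571). Lce1m had 3618, 4426 and 842.1 in mutant samples, against 6967, 8395 and 10340 in control samples, a difference of -1.81 (limma adjusted p = 1). Crct1 thus sat between neighbours with differences of opposite sign, and its own signals overlapped between groups. Probe sets of the Lce genes can share signal, and the one for Lce1i (_x_at) and the one for Lce1m (_s_at) are of kinds that match several transcripts.

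**Figure D3:**
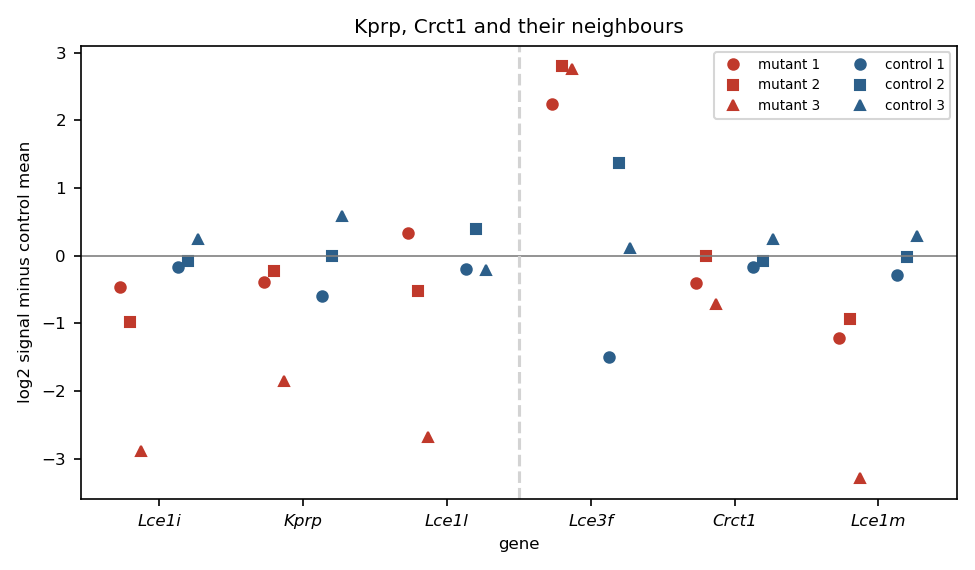
Log2 signal minus the mean of the control arrays (vertical axis) for Kprp, Crct1 and the next genes with a probe set on each side, in 3 mutant and 3 control arrays; the dashed line separates the 2 neighbourhoods. Mutant sample 3 is the lowest array for each gene shown other than Lce3f, which is higher in all mutant arrays.

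Lgals7, Sfn and Perp had their lowest signal in mutant sample 1, the array that stood apart. Lgals7 had signals of 3491, 12160 and 9256 in mutant samples, against 12460, 11190 and 15090 in control samples. Mutant sample 2 lay within the control range and mutant sample 3 below it. The difference was -0.80 (SE 0.39, 95% interval -1.68 to 0.070), and without mutant sample 1 it was -0.27 (SE 0.15, limma adjusted p = 0.769). Leaving out mutant sample 2 gave -1.17 (unadjusted p = 0.0107, limma adjusted p = 0.819), leaving out mutant sample 3 gave -0.97, and array weights gave -0.49. Among 6 tested relatives, differences were positive for 3 and negative for 3, and none passed the test. Lgals3, the galectin of epidermis and macrophages, differed by -0.043 (SE 0.12). Lgals4, the next gene on the chromosome, differed by 0.28, Lgals8 by -0.16 and Lgals1, abundant in dermis, by -0.046. On the other side lies Capn12, which differed by -0.11.

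Sfn had signals of 2328, 6322 and 4954 in mutant samples, against 5552, 4752 and 4609 in control samples. Mutant sample 1 was at 0.472 times the control mean, mutant sample 2 was the highest array and mutant sample 3 lay inside the control range. The difference was -0.24 (SE 0.31, 95% interval -0.95 to 0.46), and it was 0.17 (SE 0.14) without mutant sample 1 and -0.54 (SE 0.28) without mutant sample 2. Of the 6 other 14-3-3 genes, which encode adaptors of the same family, 4 differed in the negative and 2 in the positive direction (median -0.10), and none passed the test. Ywhah differed by -0.17, Ywhae by -0.12, Ywhab by 0.087 and Ywhag by -0.086. Ywhaz had 6435, 13990 and 12620 in mutant samples, against 13280, 9772 and 11200 in control samples, and was also lowest in mutant sample 1 and highest in mutant sample 2. The neighbours of Sfn, Gpn2 and Zdhhc18, differed by -0.024 and -0.091.

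Perp had signals of 16430, 25650 and 21130 in mutant samples, against 23040, 20310 and 20080 in control samples. Its lowest and highest arrays were the same as those of Sfn, and the control samples lay between them. The difference was -0.026 (SE 0.16, 95% interval -0.39 to 0.34), and it was 0.14 without mutant sample 1. Tnfaip3, the neighbour of Perp that passed the filter, differed by 0.17. Mutant sample 1, low for these 3 genes, was also the array with the lowest sum of basal keratinocyte markers and the highest sums of decidual and smooth muscle markers, and the part of those cells in these values was not tested.

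**Figure D4:**
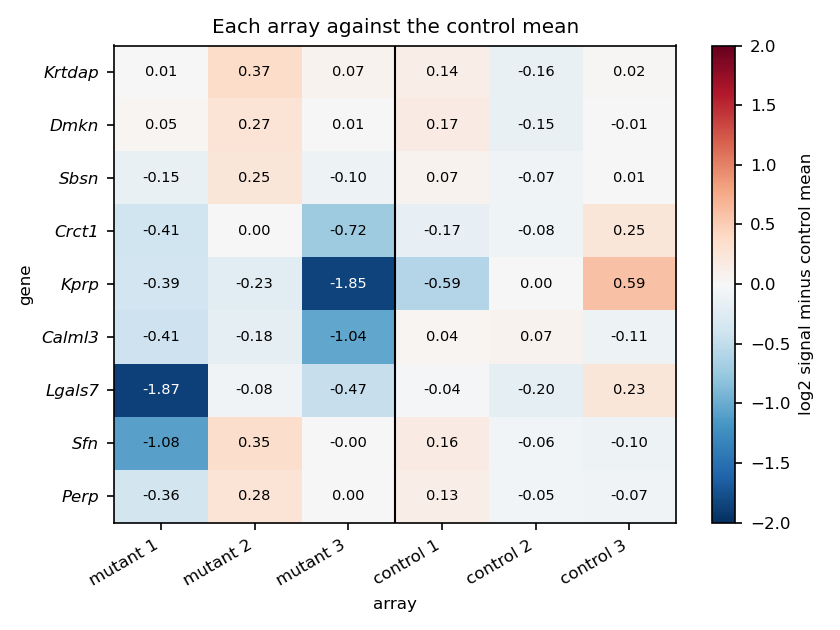
Log2 signal minus the mean of the 3 control arrays, for each gene (rows) in each array (columns), with the value in each cell; red is above and blue below the control mean. Lgals7 (-1.87) and Sfn (-1.08) are lowest in mutant sample 1, and Kprp (-1.85), Calml3 (-1.04) and Crct1 (-0.72) in mutant sample 3.

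Mutant samples 1 and 3 both lay below every control sample for Crct1, Calml3, Lgals7 and the brightest and dimmest probe sets of Sbsn. The second probe set of Sbsn did not share this. The pattern was picked out after the values were seen, and its share over all probe sets was not counted. The lowest array differed from gene to gene. Mutant sample 1 was the lowest of the 6 arrays for 4 members (Sbsn, Lgals7, Sfn and Perp), and over all probe sets tested it was the lowest for 31.0%. Mutant sample 3 was the lowest for 3 members (Crct1, Kprp and Calml3), where it was the lowest for 12.7% of all probe sets. Mutant sample 2 was the lowest for 0 members, against 22.0% of all probe sets, and the highest for 5 (Krtdap, Dmkn, Sbsn, Sfn and Perp), against 19.3%. The SD of log2 signal was larger in mutant than in control samples for 8 of 9 members, all but Dmkn, against 69.4% of all probe sets. It was 0.943 in mutant and 0.218 in control samples for Lgals7, 0.746 and 0.143 for Sfn, and 0.446 and 0.096 for Calml3. For Krtdap it was 0.192 in mutant and 0.148 in control samples.

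**Figure D5:**
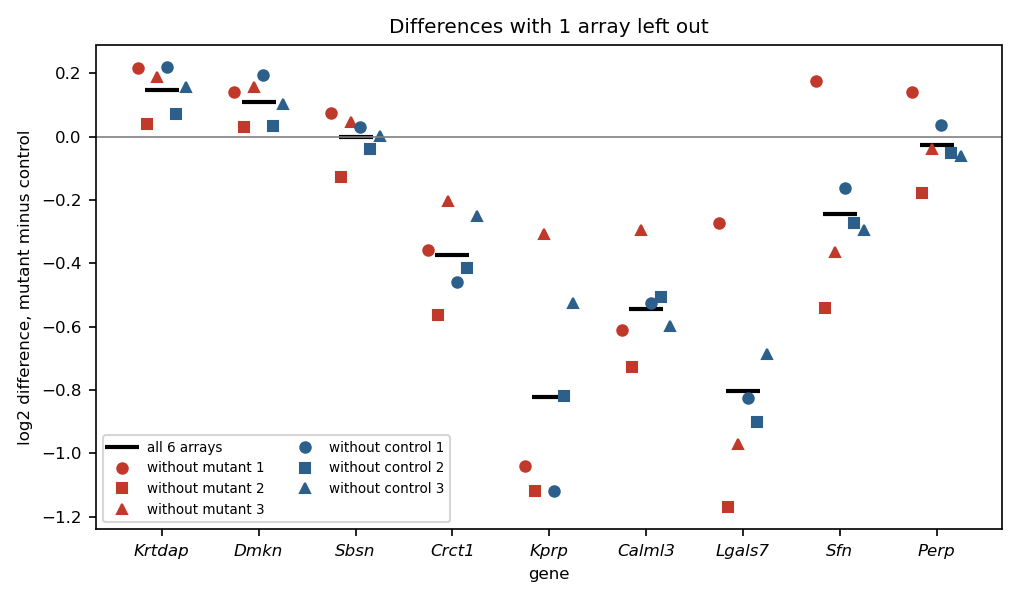
Log2 difference, mutant minus control (vertical axis), of the 9 genes with all 6 arrays (black bars) and with 1 array left out (symbols). Krtdap and Dmkn stay between 0.030 and 0.22, Lgals7 moves to -0.27 without mutant sample 1, and Kprp to -0.31 without mutant sample 3.

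Other genes of the suprabasal and granular layers, taken from a list of 30, were set beside the members. Of 28 tested, 22 differed in the negative and 6 in the positive direction (median -0.19), and none passed the threshold. At an unadjusted p under 0.05 in limma, 7 were lower and 0 higher, against 1.97% and 1.45% of all probe sets. For 7 of the 28 all mutant samples lay below all control samples, against 5.03% of all probe sets. The list was chosen with earlier results of these data known, so these counts cannot set it apart from that background. Those with the smallest p were Flg (filaggrin), Rptn (repetin), Cdsn (corneodesmosin) and the protease Klk5, with differences of -3.70, -1.73, -1.26 and -1.04 and a limma adjusted p of 0.426 each. These 4 genes were among the 7 without overlap. Krt1 and Krt10, the keratins of the suprabasal layers, differed by 0.09 and 0.14, and Lor and Ivl, the envelope proteins loricrin and involucrin, by -0.08 and -0.27. Krtdap and Dmkn had differences near those of Krt1 and Krt10, and mutant sample 2 had the highest signal of each of the 4. For Krt1 this was 38240, nearly equal to 38230 in control sample 1. All 4 lie near the brightest end of the arrays, which was also highest in mutant sample 2.

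Regulators of stratification gave no call. Of 14 tested, 8 differed in the negative and 6 in the positive direction (median -0.07). In limma 0 had an unadjusted p under 0.05, against 3.42% of all probe sets, a share at which 14 genes can easily give 0. Trp63, which encodes p63, differed by -0.05 (SE 0.14). The basal keratins Krt5 and Krt14 differed by -0.23 and -0.22, and both were lowest in mutant sample 1 and highest in mutant sample 2. Prdm1, a transcriptional repressor made in granular-layer keratinocytes, differed by -0.23 and Grhl3, a grainyhead factor needed for the barrier, by 0.31. Notch3 differed by 0.11 and Zfp750, a p63 target that promotes differentiation, by 0.17.

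Genes of the p53 pathway, set beside Sfn and Perp, gave 5 negative and 8 positive differences among 13 tested, with a median of 0.063. None passed the threshold. At an unadjusted p under 0.05 limma called 1, against 3.42% of all probe sets in either direction. With 13 tested, 1 call cannot set the list apart from that background. The called gene, Trp53inp1, a p53-induced nuclear protein, had signals of 2129, 2561 and 2257 in mutant samples, against 1929, 1563 and 1682 in control samples. All its mutant samples lay above all control samples, with a difference of 0.42 (SE 0.14, unadjusted p = 0.0151, limma adjusted p = 1). A gap in that direction was found for 3.30% of all probe sets. Aen, a p53-induced nuclease, differed by -0.40, the stress gene Gadd45a by 0.37 and Pmaip1, which encodes the death protein Noxa, by 0.25. The groups overlapped for each. Gadd45a was at 1011 in mutant sample 1, while mutant samples 2 and 3 lay within the control range of 249.1 to 517.2. Pmaip1 was at 1176 in mutant sample 3, while mutant samples 1 and 2 lay within the control range of 491.3 to 721.9. For Aen, mutant sample 2 lay within the control range.

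Desmosome components, the partners of Perp, gave 8 negative and 2 positive differences among 10 tested, with a median of -0.16, and none passed the threshold. Over all probe sets tested, 55.6% of differences were negative. Dsc2, a desmocollin of simple and stratified epithelia, had signals of 500.7, 480.6 and 565.1 in mutant samples, against 207.8, 251.7 and 300.5 in control samples. Its mutant samples all lay above the control samples, with a difference of 0.97 (SE 0.18, limma adjusted p = 0.426). Dsc1, the suprabasal desmocollin, had 13780, 13010 and 12450 in mutant samples, against 14880, 14490 and 14940 in control samples, a difference of -0.18. Its mutant samples all lay below the control samples. Such a gap was found for 5.03% of all probe sets in the lower and 3.30% in the higher direction. Dsg1a and Dsg1b, suprabasal desmogleins, differed by -0.24 and -0.32.

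The 3 genes outside the group whose profile over the 6 arrays was most like the mean of the 9 members' standardised profiles were Slc27a4, Pafah1b1 and Tpgs1. Slc27a4 encodes a fatty acid transporter that the skin barrier needs in mice. Its Pearson correlation was 0.984, and that of the other 2 was 0.978, over 6 arrays and with 11580 genes searched, so values of this size describe these arrays only. All points share the arrays' scaling. The mean profile also blends unlike members, whose correlations with each other ran from -0.142 (Krtdap and Kprp) to 0.962 (Krtdap and Dmkn). Slc27a4 had signals of 935, 1952 and 1029 in mutant samples, against 1492, 1340 and 1626 in control samples. Mutant samples 1 and 3 lay below and mutant sample 2 above all control samples.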

How the data were processed

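RNA of 6 mouse skin samples (3 mutant, 3 control, grouped by title) was measured on 1 Affymetrix array each. The deposited values are linear signal intensities, 1 per probe set. The tool named is MAS5, per the submitters' processing notes, with no version. A mean of 500 after trimming 2% at each end in every column shows that the authors had scaled the deposited intensity. Detection calls were not used here.

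Signals were analysed as log2(signal + 24.48), the added value being the 20th percentile of all signals, so changes of dim probe sets are understated. The 64 control probe sets were left out, and a mean log2 above the median (signal of about 114.5) was required, which left 22518 probe sets and 11589 genes. Symbols came from the platform annotation, updated by gene identifier to RefSeq (GRCm38.p6). The probe set with the highest mean stood for a gene. There were 34958 probe sets with 1 symbol, 932 with several and 9211 with none.

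The test was limma's (version 3.58.1, R 4.3.3), two-sided, with eBayes, a mean-variance trend and Benjamini-Hochberg adjustment. It was tried on simulated data. The members, lists and motifs were chosen with earlier results of these data known. The text names all members, up to 4 genes of each list with the smallest p, fixed reference genes and nearest neighbours. Alternatives were other pseudocounts (1 and 100), filters, normalizations, variance models, array weights, a replicate block, each sample left out, and probe sets averaged per gene. Same-numbered samples gave correlations of deviations of -0.052, -0.073 and 0.11, so numbers were not taken to pair samples. Promoters came from a RefSeq table. Figures were drawn with matplotlib 3.10.9.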

Additional observations from a re-analysis of the deposited data

How the results depend on the processing

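No member passed the threshold of 0.05 in any of the 16 settings in which members were counted, with the lowest limma adjusted p, 0.0579, for Calml3 with array weights. Calml3 (-0.88 to -0.30), Crct1 (-0.59 to -0.20), Kprp (-1.50 to -0.31) and Lgals7 (-1.17 to -0.27) were negative, and Krtdap and Dmkn positive, in all 17 other settings. The median difference of the members was -0.24, and it was -0.053 with array weights. With 1 sample left out it lay between -0.54 (without mutant sample 2) and 0.074 (without mutant sample 1). Sbsn, at -0.13 to 0.074 with 1 sample left out, changed sign without mutant sample 1 (0.074), mutant sample 3 (0.045), control sample 1 (0.031) and control sample 3 (0.00059). Perp, at -0.18 to 0.14, changed sign without mutant sample 1 (0.14), without control sample 1 (0.038) and with array weights (0.017), and Sfn, at -0.54 to 0.17, without mutant sample 1 (0.17). The number of probe sets past the threshold was 1 with all samples, 0 with the stricter filter (11259 tested), 106 with array weights, 8 with the replicate block, and 1 to 39 with 1 sample left out (39 without mutant sample 1, 3 without control sample 2). The replicate block gave no call among the members. The causes were not tested. With 3 arrays a group, the intervals allow differences of up to -1.79 for Kprp.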
